A study of Mus musculus with 27 samples.

Results

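The 8 genes Cyp51, Tm7sf2, Msmo1, Nsdhl, Hsd17b7, Ebp, Sc5d and Dhcr7 encode the enzymes that carry out most of the steps from lanosterol to cholesterol. They were taken by name from the pathway, with earlier results of these data known, as the probe sets annotated to 1 of these symbols alone. The shares over all genes set beside their counts are therefore a description and not a test. This gave 16 probe sets of 45101 on the array and 8 genes of the 18193 that had a probe set of a single symbol. Of several probe sets of a gene the brightest stands for it, and the other 8 are described after it. All 8 were called above background, an intensity of 69.9 that was the highest reading of probe sets for Y-linked genes in these female cells, on 27 of 27 arrays, except Tm7sf2 with 26.

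Lanosterol is the first sterol that the pathway makes from squalene. The enzymes described here remove 3 of its methyl groups, shift and reduce its double bonds and so turn it into cholesterol. Their genes are known targets of the SREBP transcription factors, which are held in the endoplasmic reticulum when sterols are plentiful and are released to the nucleus when sterols run low. In growing fibroblasts the pathway supplies cholesterol for new membrane, beside uptake from serum.

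RNA came from mouse embryonic fibroblasts of 3 lines. One was wild type for PKBalpha, the protein kinase that Akt1 encodes, another was its knockout, and the last, labelled R, is described as a rescued knockout. Per the labels, 3 biological replicates of each line were collected without treatment, and as many 4 h and 24 h after a gamma dose of 10 Gy, which makes 9 groups. The comparisons are those of irradiated with untreated cells within a line, and of the lines with each other. The female cells, at passage 45 in medium with 10% serum, were in culture for 24 h before the dose. With 1 line per genotype, a difference between lines need not be one of genotype. How long untreated cells were kept is not given in the sources used here, so culture time and dose cannot be told apart. Groups were taken from the sample titles, since for 6 irradiated wild-type samples the description reads untreated.

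Akt1 read 3549 in wild-type cells (geometric mean of 9 arrays), 21.5 in the knockout and 21.0 in the line labelled R, the last 2 below background, so the labelled rescue was not seen on this probe set. Whether the probe set covers the reintroduced sequence is not given in the sources used here. Of 10 fibroblast markers 9 were above background on all arrays. Of 5 epithelial and 4 endothelial markers none was above background on all arrays. Epcam, Krt19, Krt8 and Krt18 were above it on 15, 13, 7 and 3 arrays, and Cdh1 on 0. Krt8 read 79.3 in the wild type, 24.5 in the knockout and 22.8 in the line R. The endothelial list summed to 246 to 657 in the wild type, 50.6 to 132 in the knockout and 79.1 to 114 in the line R. Pecam1, Cdh5 and Tek were below background on all arrays. Kdr was above it on 9 arrays and read 299.5, 35.1 and 42.5 in the wild type, knockout and line R. Of 3 muscle markers 0 were above background on all arrays. Des was above it on 14 and read 72.6, 18.5 and 85.9 in the same order. Of 4 macrophage and 3 measured adipocyte markers, Csf1r and Fabp4 were above background on 27 of 27 arrays, while Ptprc, Adipoq and Cidec were below it on all. Cd68 was above it on 10 arrays and Adgre1 on 2. Cd68 read 95.9, 53.1 and 46.8 in the wild type, knockout and line R. Fabp4 read 869, 519 and 363 in the wild type, knockout and line R, and fibroblast markers also differed, with Dcn at 11510.3, 3466 and 1055 and Thy1 at 1973, 11378 and 6035. In 5 arrays the log2 ratio of the 3' to the 5' Gapdh control probe sets was -0.19 to 0.16, against -0.47 to -0.30 in the other 22. They were replicate 2 of the untreated wild type, replicate 0 of the wild type at 4 h, replicate 2 of the untreated knockout, and replicates 1 and 2 of the line R, untreated and at 24 h. Results are given with and without them where a call rests on them. In bulk RNA, fewer cells that express a gene and less RNA per cell cannot be told apart.

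The windows of 250 bases before the RefSeq start site (GRCm38.p6) were read for all 8 genes. Those of the 4 genes that fell in irradiated wild-type cells are shown to let the sequence be read beside the values. Capitals mark CCAAT, the NF-Y box, and TCACNNCA, a loose form of the sterol regulatory element that SREBP binds, on either strand (CCAAT on the other strand reads ATTGG). The windows are chr5:4104698-4104947 (minus strand) for Cyp51, chr19:6067851-6068100 (minus strand) for Tm7sf2, chrX:72918271-72918520 (plus strand) for Nsdhl and chr7:143829964-143830213 (plus strand) for Dhcr7, the one of its 3 start sites with the most matches.
Cyp51: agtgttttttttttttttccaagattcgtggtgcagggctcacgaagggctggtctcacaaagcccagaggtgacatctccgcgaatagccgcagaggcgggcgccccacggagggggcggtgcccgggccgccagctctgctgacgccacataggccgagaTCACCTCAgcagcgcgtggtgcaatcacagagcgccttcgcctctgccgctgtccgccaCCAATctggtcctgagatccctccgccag
Tm7sf2: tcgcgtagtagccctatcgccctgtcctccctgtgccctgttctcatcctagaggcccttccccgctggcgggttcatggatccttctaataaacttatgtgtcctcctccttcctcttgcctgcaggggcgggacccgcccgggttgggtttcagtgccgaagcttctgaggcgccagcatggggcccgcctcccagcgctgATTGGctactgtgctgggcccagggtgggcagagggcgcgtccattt
Nsdhl: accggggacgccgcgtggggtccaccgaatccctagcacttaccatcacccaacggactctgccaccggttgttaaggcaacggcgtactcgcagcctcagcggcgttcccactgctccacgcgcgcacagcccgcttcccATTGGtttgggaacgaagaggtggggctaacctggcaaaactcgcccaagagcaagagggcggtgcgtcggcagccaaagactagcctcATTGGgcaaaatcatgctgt
Dhcr7: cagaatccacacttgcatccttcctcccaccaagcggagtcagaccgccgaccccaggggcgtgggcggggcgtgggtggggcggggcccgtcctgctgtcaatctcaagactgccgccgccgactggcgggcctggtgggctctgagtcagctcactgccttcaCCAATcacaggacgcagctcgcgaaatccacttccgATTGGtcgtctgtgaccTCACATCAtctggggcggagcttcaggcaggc

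CCAAT was found on either strand in a window of 8 of 8 genes, and in 33.8% of the 32851 start-site windows of the table. TCACNNCA was found for 5 of 8 genes (Cyp51, Msmo1, Hsd17b7, Sc5d and Dhcr7), against 11.4% of all windows. The stricter TCACNCCAC, present in 1.05% of all windows, was found in none of the 10 windows of these genes. The GC box GGGCGG was found for 8 of 8 genes, against 32.7% of all windows. Over the 21263 windows of coding start sites alone the share was 42.6% for GGGCGG, 35.4% for CCAAT and 10.5% for TCACNNCA. In Msmo1 a TCACNNCA match begins inside a CCAAT match. The shares compare genes that can have several windows with single windows, and a match describes letters, not a bound site.

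In wild-type cells at 4 h after irradiation, 4 of the 8 genes fell: Cyp51, Tm7sf2, Nsdhl and Dhcr7. Of all 18193 genes, 1.74% were called lower in this comparison. A call means a Benjamini-Hochberg adjusted p from limma under 0.05 over all genes of the contrast, two-sided. All 8 read lower than in untreated cells, with a median log2 difference of -0.81 against -0.01 for all genes. In 7 of 8, every array at 4 h lay below every untreated array, which held for 10.8% of all genes. Neither the knockout nor the line labelled R had a called member at 4 h or 24 h.

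**Figure D1:**
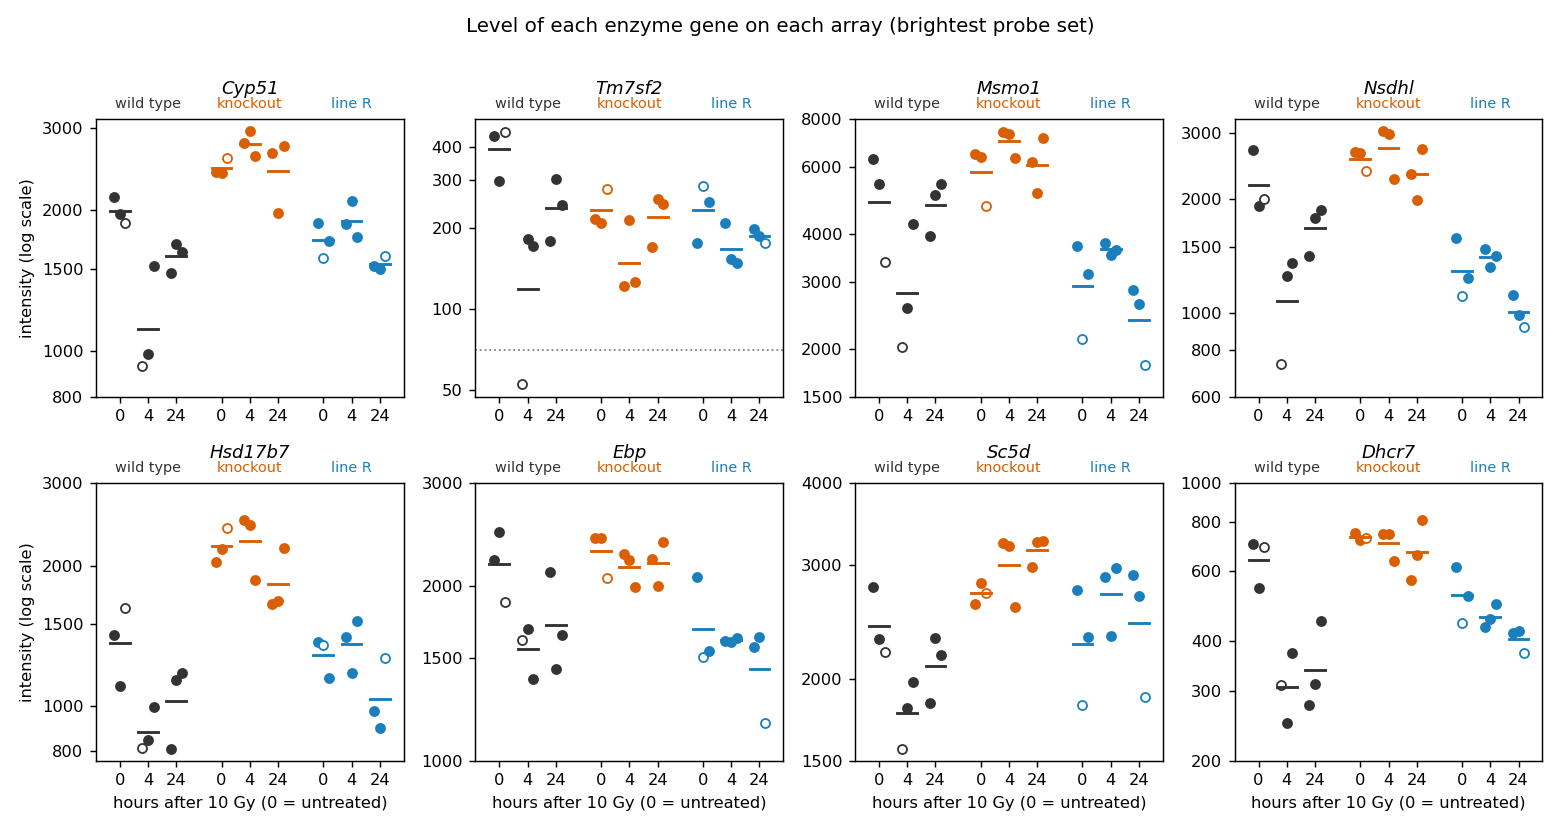
Intensity (log scale) of each gene's brightest probe set on each of 27 arrays, by line and hours after 10 Gy, with 3 points a group and a bar at the group's geometric mean. Open points are the 5 arrays that stood apart in the Gapdh ratio and the dotted line is background; the wild type at 4 h has the lowest mean for 5 of 8 genes, and a knockout group has the highest for all but Tm7sf2.

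Cyp51 encodes lanosterol 14-alpha demethylase, the cytochrome P450 that takes the first methyl group off lanosterol. Its probe set 1450646_at read 2135, 1963 and 1879 on the untreated wild-type arrays (replicates 0, 1 and 2, the order used throughout), 928, 988 and 1524 at 4 h, and 1473, 1695 and 1628 at 24 h. All arrays at 4 h and at 24 h were below all untreated ones. Cyp51 fell by 0.83 on the log2 scale at 4 h (SE 0.16, n = 3 and 3, adjusted p = 0.0084), to 56.2% of its untreated level. Without the 5 arrays that stood apart it was not called (-0.74, adjusted p = 0.056). At 24 h the difference was -0.32 (adjusted p = 0.53). In the knockout it read 2411, 2400 and 2582 untreated and 2780, 2955 and 2607 at 4 h, so that all arrays at 4 h were above all untreated ones, by 0.17 (adjusted p = 0.69). In the line R it read 1880, 1585 and 1723 untreated and 1871, 2093 and 1752 at 4 h, and these groups overlapped. Its 2 other probe sets differed by -0.73 and -0.76 in the wild type at 4 h (adjusted p = 0.13 and 0.35 over probe sets), and the dimmer one was above background on 1 of 3 arrays at 4 h.

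Tm7sf2 encodes a sterol C14 reductase, which reduces the double bond that the demethylation leaves. On probe set 1460684_at the untreated wild-type arrays read 438, 299 and 454, those at 4 h 52.4, 182 and 171, and those at 24 h 178, 303 and 242. All arrays at 4 h were below all untreated ones, and replicate 0 at 4 h was below background. Tm7sf2 fell by 1.73 at 4 h (SE 0.37, adjusted p = 0.015), to 30.2% of its untreated level, from 390 to 118 as geometric means. Without replicate 0 at 4 h, one of the 5 arrays that stood apart, the difference was -1.14 (adjusted p = 0.066), and without all 5 it was -1.03 (adjusted p = 0.11). Its SD at 4 h was 1.01 on the log2 scale, the widest of the 9 groups. In the knockout the gene read 216, 209 and 278 untreated and 122, 214 and 125 at 4 h, a difference of -0.65 (adjusted p = 0.48). In the line R the difference was -0.47 (adjusted p = 0.59). Tm7sf2 had the lowest 4 h difference of the 8 genes in each of the 3 lines, and the differences between lines were not called. Lbr, which encodes the lamin B receptor and has the same C14 reductase activity, read 3212 in untreated wild-type cells and 4475 at 4 h (0.48, adjusted p = 0.051).

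Msmo1 encodes the methyl oxidase that attacks the pair of methyl groups at carbon 4. Its probe set 1423078_a_at read 6279, 5415 and 3384 in untreated wild-type cells, 2026, 2562 and 4254 at 4 h, and 3954, 5068 and 5420 at 24 h. The groups overlapped at both times, because untreated replicate 2 was low and replicate 2 at 4 h was high. Msmo1 differed by -0.79 at 4 h (SE 0.27, adjusted p = 0.12) and by -0.03 at 24 h (adjusted p = 0.98). Without replicate 2 at 4 h, the difference at 4 h was -1.09 and was called (adjusted p = 0.036). In the knockout the arrays read 6498, 6360 and 4734 untreated and 7397, 7322 and 6342 at 4 h, and in the line R 3726, 2123 and 3136 untreated and 3798, 3534 and 3633 at 4 h. Both differences were above 0 and not called (0.27 and 0.33, adjusted p = 0.73 and 0.63). A second, dim probe set was below background on the 3 wild-type arrays at 4 h and on 2 of 3 arrays in each group of the line R, so its differences there are not read. In the knockout, where it was above background at both times, it differed by -0.64 without a call, the opposite sign to the bright one.

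Nsdhl, on the X chromosome, encodes the dehydrogenase that then removes the oxidised carbon at position 4. Probe set 1416222_at read 2708, 1919 and 2005 in untreated wild-type cells, 730.3, 1250 and 1358 at 4 h, and 1417, 1791 and 1878 at 24 h. Both irradiated groups lay wholly below the untreated group. Nsdhl fell by 1.02 at 4 h (SE 0.21, adjusted p = 0.013), to 49.2% of its untreated level, and differed by -0.38 at 24 h (adjusted p = 0.57). The call at 4 h was lost without untreated replicate 0 (-0.87, adjusted p = 0.054), without replicate 0 at 4 h (-0.75, adjusted p = 0.07) and without the 5 arrays that stood apart (-0.81, adjusted p = 0.058). In the knockout it read 2668, 2650.2 and 2372 untreated and 3041, 2978 and 2267 at 4 h (0.10, adjusted p = 0.89). In the line R it read 1577, 1112 and 1236 untreated and 1478, 1327 and 1412 at 4 h (0.12, adjusted p = 0.85). The groups overlapped in both lines.

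Hsd17b7 encodes the reductase that turns the 3-keto group left by Nsdhl back into an alcohol. Probe set 1457248_x_at read 1419.6, 1103 and 1622 in untreated wild-type cells, 813, 847 and 994 at 4 h, and 808, 1139 and 1179.7 at 24 h. All arrays at 4 h were below all untreated ones, and the difference of -0.63 (SE 0.19) was not called (adjusted p = 0.071). The knockout read 2036, 2166 and 2412 untreated and 2506, 2447 and 1865 at 4 h, and the line R 1372, 1351 and 1151 untreated and 1408, 1177 and 1523 at 4 h. These groups overlapped within each line, with differences of 0.03 and 0.08. A second probe set of Hsd17b7, 1417871_at, fell by 1.04 in the wild type at 4 h (adjusted p = 0.045 over probe sets), from 1117 to 542. The third differed by -0.41 without a call, and the dimmest was below background on all 9 wild-type arrays and gives no direction there.

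Ebp, also on the X chromosome, encodes the sterol isomerase that moves the double bond of the B ring. Its probe set 1416667_at read 2217, 2476 and 1877 in untreated wild-type cells, 1616, 1687 and 1385 at 4 h, and 2112, 1437 and 1645 at 24 h. The groups at 4 h and untreated did not overlap, and the difference was -0.48 (SE 0.17, adjusted p = 0.12). The knockout read 2415, 2417 and 2062 untreated and 2267, 2219 and 1988 at 4 h (-0.09, adjusted p = 0.87). The line R read 2069, 1507 and 1542 untreated and 1606, 1598 and 1628 at 4 h (-0.07, adjusted p = 0.90), so the groups overlapped in both lines.

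Sc5d encodes the C5 desaturase, which puts in the second double bond of the B ring. Probe set 1451457_at read 2771, 2311 and 2207 in untreated wild-type cells, 1563, 1806 and 1985 at 4 h, and 1837, 2311 and 2180.3 at 24 h. All arrays at 4 h were below all untreated ones, with a difference of -0.44 (SE 0.17, adjusted p = 0.18). Its second probe set, 1434520_at, fell by 0.93 (adjusted p = 0.015 over probe sets), from 1722 to 903, and the third differed by -0.85 with wide errors (SE 0.45). The brightest probe set read 2614, 2813 and 2716 in untreated knockout cells and 3243, 3205 and 2587 at 4 h, and 2741, 1824 and 2323 in the untreated line R and 2867, 2336 and 2962 at 4 h. Outside the wild type the probe sets of Sc5d disagreed. The brightest differed by 0.14 in the knockout and 0.26 in the line R at 4 h, and the second by -0.33 and -0.39, none of them called. A direction at 4 h in these lines can therefore not be given for Sc5d.

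Dhcr7 encodes the reductase of the last step, from 7-dehydrocholesterol to cholesterol. Probe set 1448619_at read 704, 544 and 690.4 in untreated wild-type cells, 309.95, 249.7 and 373 at 4 h, and 277, 312 and 449 at 24 h. Both irradiated groups lay wholly below the untreated one. Dhcr7 fell by 1.07 at 4 h (SE 0.18, adjusted p = 0.005), to 47.8% of its untreated level. Of the 8 genes it alone was still called without the 5 arrays that stood apart (-1.02, adjusted p = 0.04), and it was called whichever single array of the comparison was left out (adjusted p up to 0.023). The knockout read 748, 721 and 728 untreated and 745, 746 and 635 at 4 h (-0.05, adjusted p = 0.94). The line R read 615, 445 and 521 untreated and 434, 454.5 and 497 at 4 h (-0.18, adjusted p = 0.70), and the groups overlapped in both.

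**Figure D2:**
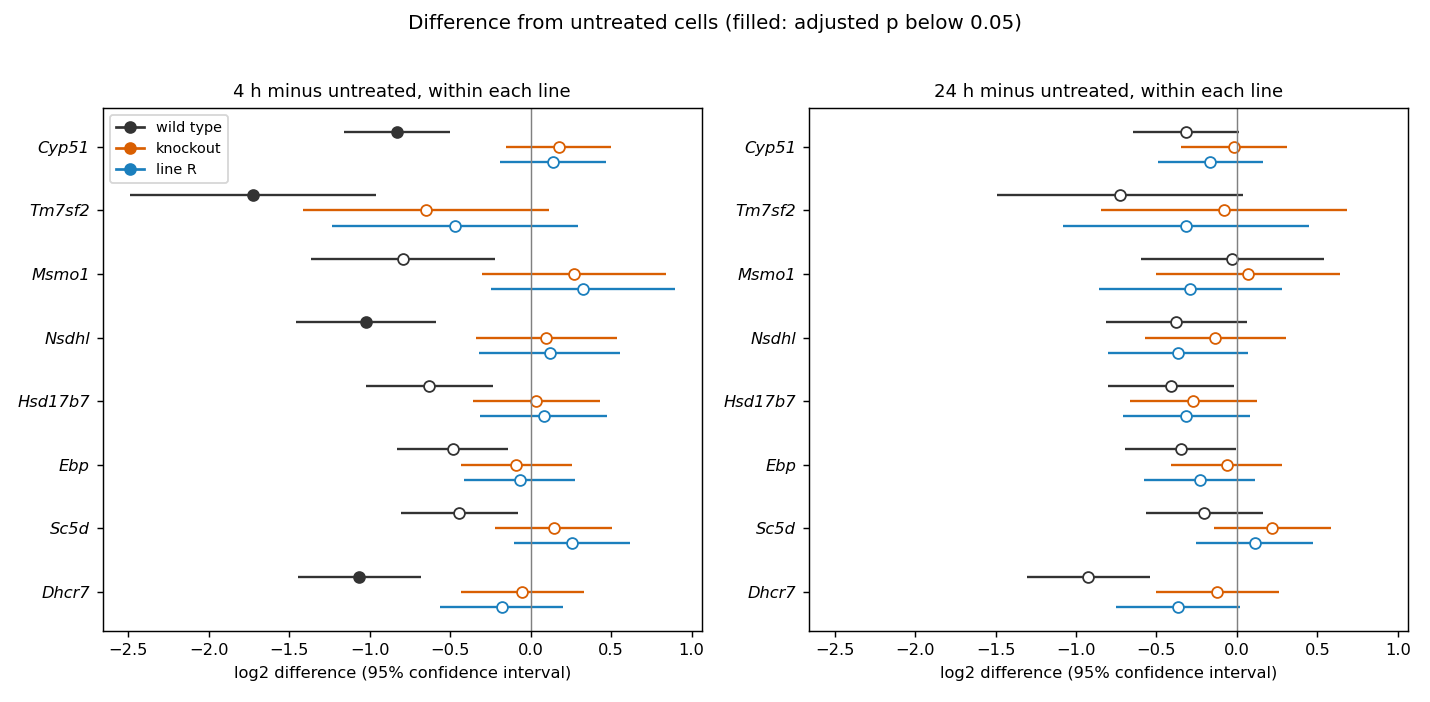
Log2 difference from untreated cells of the same line for each gene (points, with 95% confidence intervals from limma), at 4 h and 24 h, filled where the adjusted p was under 0.05. The 4 filled points are all in the wild type at 4 h, and the intervals of the knockout and the line R include 0 for all 8 genes at 4 h.

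The count in the wild type at 4 h depended on which arrays and genes entered the model. Without the 5 arrays that stood apart, 1 of 8 was called, with a median of -0.77. Without replicate 0 of the wild type at 4 h alone, 2 of 8 were called. A model on the 6 compared arrays called 0 of 8, with adjusted p values of 0.33 to 0.50. In the model of all arrays 8 of 8 had an unadjusted p under 0.05, as had 8.7% of all genes in this direction. Of the 16 probe sets 15 were above background on the untreated wild-type arrays, and all 15 read lower at 4 h. Over probe sets, 6 of the 16 were called lower, against 0.475% of all probe sets.

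Genes of the pathway before lanosterol also fell in these cells. Of 11 listed, 9 were measured and 7 fell in the wild type at 4 h, with a median difference of -0.98. Sqle, squalene epoxidase, fell by 0.70 (adjusted p = 0.0048), Lss, which closes the ring to lanosterol, fell by 1.14 (adjusted p = 0.0088), and Pmvk, phosphomevalonate kinase, fell by 0.89 (adjusted p = 0.011). Without the 5 arrays 2 of the 9 were called. Of 6 measured genes for other late steps and for electron donors of the cytochrome b5 system, none was called and the median was -0.08 (at an unadjusted p under 0.05, 1 was lower and 1 higher). Of 8 measured genes of SREBP control and sterol uptake, 1 was called, Stard4, a sterol transporter (-0.72, adjusted p = 0.042), with a median of -0.21. Without the 5 arrays 0 of these 8 were called. Srebf2 and Insig1 differed by -0.49 and -0.86 without a call (adjusted p = 0.24 and 0.11). Of the list of efflux and esterification 6 genes were measured, without its esterification gene Soat1, and 4 of them were above background on all arrays. In the wild type at 4 h 1 of the 6 fell, Mylip, a ubiquitin ligase (-0.87, adjusted p = 0.018), and 0 were called without the 5 arrays. The median of the 6 at 4 h was -0.61 in the wild type, -0.71 in the knockout (1 called lower) and -0.69 in the line R (0 called). A low median of this list was thus not particular to the wild type.

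At 24 h the wild-type levels lay between those of the other times. All 8 genes read lower than in untreated cells (median -0.36), none was called, and 0.0275% of all genes were called lower. At an unadjusted p under 0.05, 3 were lower, against 4.55% of all genes. In 3 of 8, Cyp51, Nsdhl and Dhcr7, the arrays did not overlap with untreated ones, against 8.09% of all genes. Dhcr7 had the largest difference of the 8, -0.92 (SE 0.18, adjusted p = 0.062), and it was called without replicate 2 at 24 h (-1.13, adjusted p = 0.017). From 4 h to 24 h all 8 read higher (median 0.38) and none was called, against 1.11% of all genes called higher. At an unadjusted p under 0.05, 4 were higher, against 7.93% of all genes. Without replicate 2 at 4 h, the highest of its group for 6 of the 8 genes, 2 were called, Cyp51 (0.74, adjusted p = 0.0067) and Msmo1 (1.07, adjusted p = 0.036).

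How far the mean levels had come back at 24 h, on the log2 scale, moved with single arrays. Nsdhl had regained 63.3% of its 4 h difference (49.6% to 75.4% with 1 wild-type array left out) and Cyp51 61.7% (54.4% to 69.8%). Without the 5 arrays that stood apart these shares were 45.8% and 51.3%. Msmo1 had regained 96.5% and stood at 98.1% of its untreated level. Without the 5 arrays, which include its lowest untreated array, it had regained 64.7% and stood at 81.8%. All these shares use the brightest probe sets. The dim second probe set of Msmo1 read 171 untreated and 73.5 at 24 h, with 2 of 3 arrays above background (-1.22, SE 0.71, limma adjusted p = 0.69 over probe sets). Dhcr7 had regained 13.4% and stood at 52.7% of its untreated level. Its regained share ran from -5.7% without replicate 2 at 24 h to 27.0% without replicate 0 at 24 h. Ebp had regained 27.8%, from -3.8% without replicate 0 at 24 h to 53.7% without replicate 1 at 24 h. These shares were not compared between genes by a test. The interval of the 24 h difference was -0.60 to 0.54 for Msmo1 and -1.31 to -0.54 for Dhcr7.

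**Figure D3:**
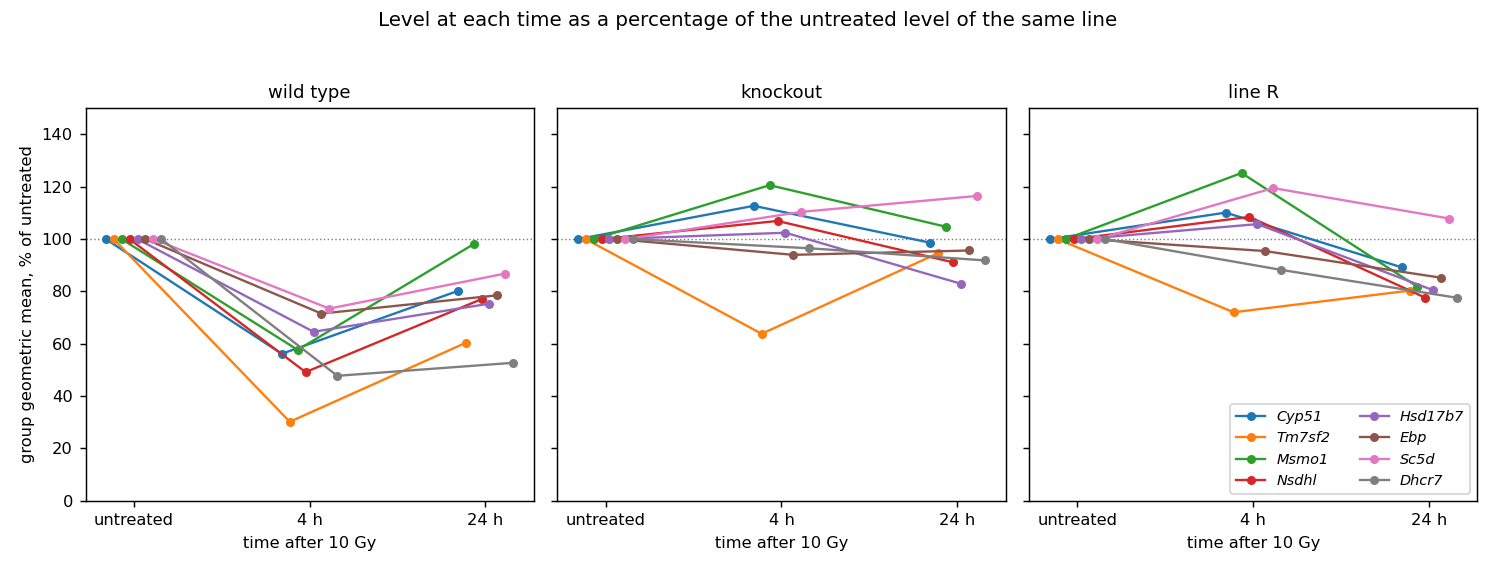
Geometric mean of 3 arrays (brightest probe set) at each time as a percentage of the untreated mean of the same line, 1 line per gene, with points shifted sideways for legibility. In the wild type the 8 genes stand at 30.2% to 73.5% at 4 h, with Msmo1 at 98.1% (81.8% without the 5 arrays that stood apart) and Dhcr7 at 52.7% at 24 h.

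In the knockout none of the 8 was called at 4 h, where 0.368% of all genes were called, or at 24 h, where 0% were (limma, all genes). No member reached an unadjusted p under 0.05 at either time. The median differences were 0.07 at 4 h and -0.07 at 24 h, and 5 of 8 read higher at 4 h on their brightest probe sets. Among these were Sc5d and Msmo1, whose probe sets differed in sign there. From 4 h to 24 h none was called or reached an unadjusted p under 0.05, with 0.0055% of all genes called. The 95% interval of the 4 h difference was -0.16 to 0.50 for Cyp51 and -0.43 to 0.33 for Dhcr7.

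In the line labelled R none was called at 4 h (0.978% of all genes called) or at 24 h (0% called), and none reached an unadjusted p under 0.05 in either. The medians were 0.10 and -0.30, and 7 of 8 read lower at 24 h. Between 4 h and 24 h, 7 of 8 read lower with a median of -0.24, none was called, and 0.335% of all genes were called lower. At an unadjusted p under 0.05, where 5.57% of all genes were lower, so were 3 members, Msmo1 (-0.62), Nsdhl (-0.48) and Hsd17b7 (-0.39), with adjusted p of 0.28, 0.26 and 0.32. In Cyp51, Msmo1, Nsdhl and Dhcr7 all arrays at 24 h were below all arrays at 4 h, which held for 9.65% of all genes. Nsdhl read 1478, 1327 and 1412 at 4 h and 1115, 989 and 918 at 24 h. Replicate 2 at 24 h, one of the 5 arrays that stood apart, was the lowest of its group for Msmo1, Nsdhl, Ebp, Sc5d, Dhcr7 and Tm7sf2.

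The response of the lines was compared directly, as the 4 h difference in one line minus that in another. These comparisons share the wild-type arrays, so they are not independent. Against the wild type, the knockout's response was higher for 8 of 8 genes, by 0.39 (Ebp) to 1.12 (Nsdhl), and none was called (adjusted p = 0.25 to 0.98, limma), while 0.011% of all genes were. At an unadjusted p under 0.05, 6 were higher, against 2.72% of all genes. For the line R the differences were 0.42 (Ebp) to 1.25 (Tm7sf2), none was called (0.0165% of all genes were), and 7 were higher at an unadjusted p under 0.05, against 2.65% of all genes. Cyp51 had the smallest p of the 8 in both, with 1.00 (interval 0.54 to 1.47, adjusted p = 0.25) and 0.97 (interval 0.51 to 1.44, adjusted p = 0.23). Without replicate 2 of the wild type at 4 h it was called in both, at 1.23 (adjusted p = 0.016) and 1.20 (adjusted p = 0.023). The calls in the wild type alone thus do not show that the lines responded differently. Between the line R and the knockout the 4 h responses differed by -0.13 (Dhcr7) to 0.17 (Tm7sf2), with 0% of all genes called and no member at an unadjusted p under 0.05. The intervals for Cyp51, from -0.50 to 0.43, and for Tm7sf2, from -0.91 to 1.08, leave room for differences of that size. At 24 h no member's response differed by the threshold in any pair of lines, where 0.0055% of all genes were called in each. Dhcr7 had an unadjusted p under 0.05 for the knockout (0.80) and the line R (0.56) against the wild type, where 1.79% and 2.07% of all genes were higher, and no other member did in these 3 comparisons.

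Without irradiation the 3 lines differed in some of the genes, as in many others of the array. Of all genes, 17.6% were called in either direction between knockout and wild type. The share was 18.8% between the line R and the wild type, and 3.79% between the line R and the knockout. In the knockout 1 of 8 was higher than in the wild type, Hsd17b7, at 2199 against 1364 (0.69, SE 0.19, adjusted p = 0.013). For 3 genes, Hsd17b7, Cyp51 and Dhcr7, all knockout arrays were above all wild-type ones, which held for 13.4% of all genes. The 1 called gene stood beside 7.77% of all genes called higher. The call was lost without wild-type replicate 1 (0.54, adjusted p = 0.085) or knockout replicate 2 (0.62, adjusted p = 0.052). The next probe sets of Hsd17b7 differed by 0.37 and 0.47 without a call, and the dimmest was below background on the untreated wild-type arrays. By brightest probe set, Tm7sf2 was the 1 gene with a lower mean in the knockout, 232 against 390 (-0.75, adjusted p = 0.19). Its knockout arrays were all below the wild-type ones, which held for 15.9% of all genes. The second probe set of Sc5d also read lower in the knockout without a call, at 1230 (1083 to 1412) against 1722 (1413 to 2022), while its brightest read 2713 against 2417. A direction between these lines can therefore not be given for Sc5d. The endothelial list, Fabp4, Dcn and Thy1 also differed between the lines, as given above, and the part of such differences in those of the 8 genes was not tested. The median of the 8 was 0.21, and 0.43 with equal array medians, a scaling that moved the median of all genes to 0.22.

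In the untreated line R all 8 read lower than in the wild type (median -0.33), and 1 was called, Nsdhl, at 1294 against 2184 (-0.75, SE 0.21, adjusted p = 0.014), beside 9.39% of all genes called lower. The call was lost without wild-type replicate 0 (adjusted p = 0.088), without replicate 1 of the line R (adjusted p = 0.061) and with equal array medians (-0.63, adjusted p = 0.11), a scaling under which Hsd17b7 and Sc5d read above the wild type by 0.04 and 0.03. Msmo1 read 2916 against 4863 (-0.74, adjusted p = 0.068). It was called without the 5 arrays (-0.77, adjusted p = 0.02), without wild-type replicate 2 (adjusted p = 0.017) or without replicate 0 of the line R (-0.91, adjusted p = 0.044). The second probe set of Sc5d was lower (-0.85, adjusted p = 0.0013 over probe sets), while its brightest differed by -0.09. Of the 9 measured genes before lanosterol, 3 were lower: Lss (1132 against 2269, adjusted p = 0.0021), Sqle (-0.68, adjusted p = 0.0003) and Fdft1 (-0.74, adjusted p = 0.01).

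Between the line R and the untreated knockout, 3 of 8 genes were lower in the line R, against 1.62% of all genes, and all 8 read lower, with a median of -0.50 against 0.05 for all genes. Msmo1 read 2916 against 5806 (-0.99, SE 0.27, adjusted p = 0.047), Nsdhl 1294 against 2560 (-0.98, SE 0.21, adjusted p = 0.011) and Hsd17b7 1288 against 2199 (-0.77, SE 0.19, adjusted p = 0.025). The next probe sets of Hsd17b7, 1417871_at and 1448865_at, also read lower without overlap, at 806 against 1441 and 328 against 547. Cyp51, Msmo1, Nsdhl, Hsd17b7 and Dhcr7 did not overlap between the lines, against 7.23% of all genes. The enzymes of the 3 called genes act after one another in removing the methyl groups at carbon 4, and a pattern by step was not tested. Without replicate 1 of the line R, 0 of 8 were called, with Nsdhl at -0.87 (adjusted p = 0.054). Without knockout replicates 0 or 1, or replicate 2 of the line R, 1 of 8 was called, and without the 5 arrays 2 of 8, with Hsd17b7 lost (adjusted p = 0.077). With the replicate number as a block, Msmo1 was no longer called (adjusted p = 0.064). Akt1 was below background on its probe set in both lines, and whether that probe set covers the reintroduced sequence is not given. Whether this contrast compares cells with and without that transcript can therefore not be told.

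**Figure D4:**
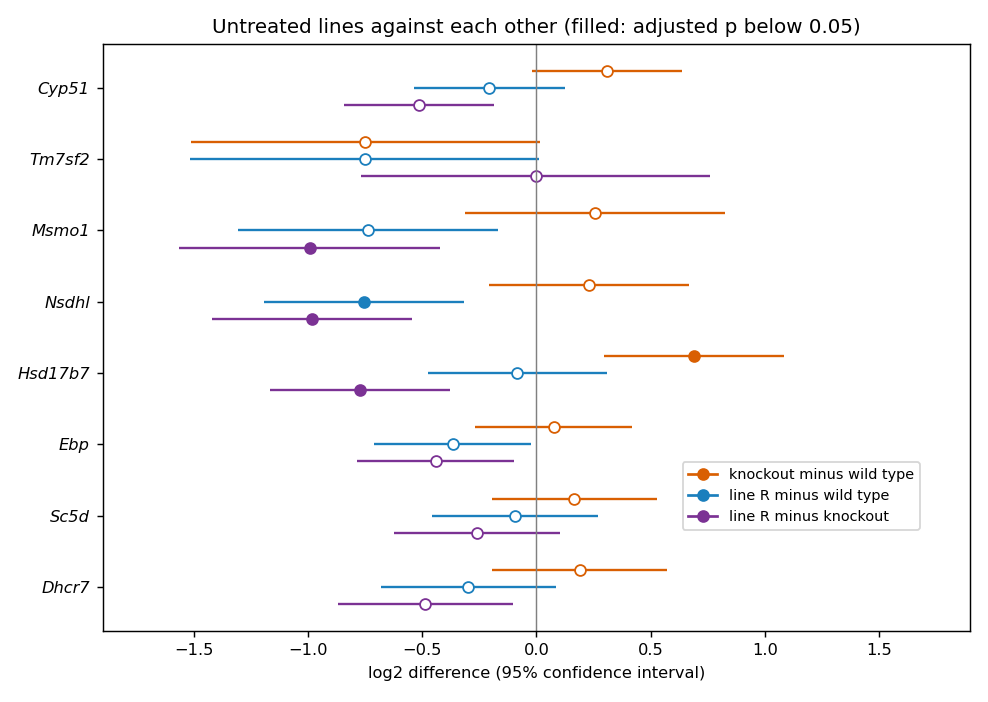
Log2 difference between untreated lines for each gene's brightest probe set (points, with 95% confidence intervals from limma), filled where the adjusted p was under 0.05. The line R minus the knockout lies below 0 for all 8 genes, with Msmo1, Nsdhl and Hsd17b7 called; the knockout minus the wild type lies above 0 for all but Tm7sf2, with Hsd17b7 called.

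Levels of the lines at the same time were set side by side without a test. At 4 h all knockout arrays were above all wild-type arrays for 7 of 8 genes, against 16% of all genes. The fold of the group means was 2.56 for Hsd17b7, 2.55 for Nsdhl, 2.50 for Msmo1, 2.48 for Cyp51 and 2.30 for Dhcr7, and 1.26 for Tm7sf2, which overlapped. The line R lay above the wild type without overlap for 4 genes, Cyp51, Hsd17b7, Sc5d and Dhcr7 (17.7% of all genes). It lay below the knockout for 6 (13.7% of all genes). These counts use the brightest probe sets. On the second probe set of Sc5d at 4 h the line R (693 to 759) lay wholly below the wild type (833 to 940). The knockout (934 to 1046) overlapped with the wild type on it at 4 h, and also at 24 h (977 to 1317 against 1054 to 1273). At 24 h the knockout lay above the wild type in 5 of 8 (17.4% of all genes), the line R below the wild type in 2 (Msmo1 and Nsdhl; 17.1%) and below the knockout in 7 (9.86%). Msmo1 at 24 h read 6169, 5110 and 7142 in the knockout, 3954, 5068 and 5420 in the wild type and 2851, 2624 and 1815 in the line R.

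Over the 9 groups the lowest mean was that of the wild type at 4 h for 5 genes and that of the line R at 24 h for Msmo1, Nsdhl and Ebp. The highest was a knockout group for 7, and the untreated wild type for Tm7sf2. These orders use the brightest probe sets. On the second probe set of Sc5d the highest mean was that of the untreated wild type (1722) and the lowest that of the line R at 4 h (725). The highest mean was 1.59 times the lowest for Ebp, 1.78 times for Sc5d, and between 2.39 and 3.31 times for the other 6 genes. Neighbours in these orders mostly did not differ beyond their spread: for Nsdhl the line R at 24 h (918 to 1115), the wild type at 4 h (730.3 to 1358) and the untreated line R (1112 to 1577) overlapped.

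**Figure D5:**
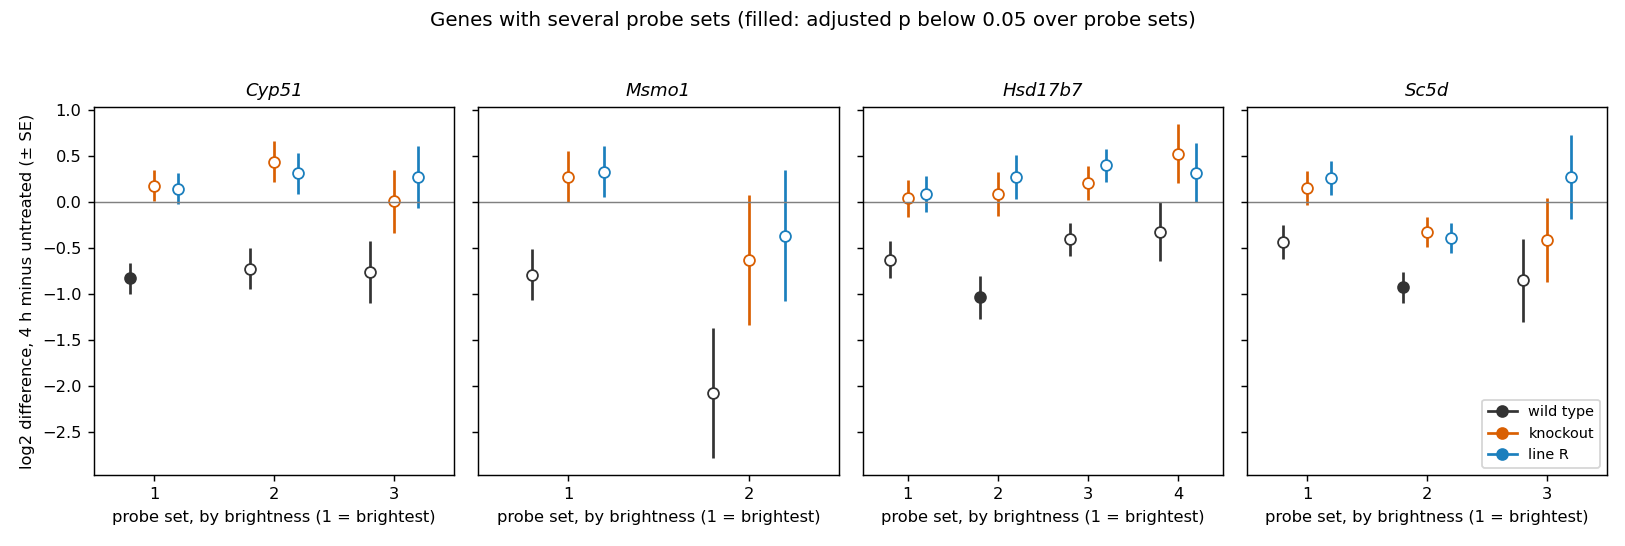
Log2 difference at 4 h from untreated cells (points, with SE) for each probe set of the 4 genes with several, ordered by brightness, filled where the adjusted p over all probe sets was under 0.05. All 12 wild-type points lie below 0, of which the dimmest of Hsd17b7 is a reading below background; for Sc5d and Msmo1 the probe sets differ in sign in the other lines.

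Correlations between the 8 genes were mostly positive across arrays and lower within groups. Over the 28 pairs of genes, Pearson's r over 27 arrays lay between 0.17 and 0.94 (median 0.68) and was highest for Msmo1 with Nsdhl. Without the 5 arrays that stood apart it lay between -0.12 and 0.97 (median 0.70). Each gene's r with the mean of the other 7 was 0.71 to 0.93, except 0.30 for Tm7sf2. Within groups, as deviations from the group means, r lay between -0.45 and 0.79 (median 0.35), and r with the mean of the other 7 was -0.02 for Ebp and 0.30 for Tm7sf2, against 0.33 to 0.91 for the rest. The arrays share lines, times and array scaling, so these values describe the arrays and carry no test. Of 9088 genes above the median level, the 10 most like the mean of the 8 over 27 arrays were Fdps (r = 0.93), Scd1 (0.89), Tecr (0.87), Scd2 (0.85), Nradd (0.81), Sqle (0.80), Fdft1 (0.80), Idi1 (0.79), Lss (0.79) and Mvd (0.79), and over the 9 group means their r was 0.82 to 0.97. Fdps, Fdft1, Idi1, Lss, Mvd and Sqle act before lanosterol, Scd1 and Scd2 encode fatty acid desaturases, and Tecr encodes an enzyme of fatty acid elongation. The median r over those 9088 genes was -0.01.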

How the data were processed

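The authors' deposited table holds linear intensity values, 1 column per array (27 arrays, 1-colour Affymetrix), scaled so that the mean after trimming 2% at each end was 500.003 on every array. RMA and GCRMA are named in the submitters' processing notes. The deposited intensities run down to 0.00523 on a linear scale with array medians of 54.4 to 80.0, so how each probe set was summarised is not given in the sources used here. Here they were taken to log2 with no offset and no further normalization. Of 45101 probe sets 64 controls were set aside, and 34945 had a single symbol, 932 several and 9160 none in the platform annotation, with 34741 found among RefSeq's genes. The brightest probe set stood for a gene, which gave 18193 genes. Background was the highest of 351 values of 13 Y-linked probe sets.

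limma 3.58.1 in R 4.3.3 was fitted to 9 group means over all arrays (18 residual and 1.39 prior degrees of freedom) with 18 contrasts, Benjamini-Hochberg adjusted within each contrast, two-sided, threshold 0.05, and tested on simulated data. With 3 arrays a group, their number limits the precision, and p-values measure only the spread between these arrays. The 8 genes, the lists and the rule for naming were chosen with earlier results of these data known. The rule names all 8 genes in each contrast, Akt1, up to 3 genes of each other list with the smallest p, and the 10 genes most correlated with the 8. Some listed genes were not analysed here. Promoter windows are RefSeq's of GRCm38.p6, cut at the start site. Replicate numbers did not pair the arrays: over 108 pairs with the same number in different groups, correlations of deviations ran from -0.11 to 0.14. Alternatives were a replicate block, the compared arrays only, an intensity trend, genes above the median level, equal array medians, quantile normalization, a gene's mean over its probe sets, each probe set by itself, a pseudocount of 16, leaving out each array, and, added after seeing the data, leaving out the 5 arrays with a Gapdh log2 ratio above -0.25.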

Additional observations from a re-analysis of the deposited data

How the results depend on the processing

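No value of a member reversed with a call over 2592 alternatives of 144 member results: 2527 kept their direction or stayed uncalled on the same side of the threshold, 41 lost a call, 24 gained one, and 115 uncalled ones changed sign. In the wild type at 4 h the 4 calls became 0 on the compared arrays only, 7 among genes above the median level, 2 with equal array medians, 1 without the 5 arrays, and 2 to 5 with 1 array left out. In the wild type at 24 h against untreated and against 4 h, the 0 calls became 1 and 1 with an intensity trend, 1 and 2 among genes above the median level, and 0 to 1 and 0 to 2 with 1 array left out. For the untreated knockout against the wild type the 1 call became 0 on the compared arrays and 0 to 1 with 1 left out. For the line R against the wild type the 1 call became 0 on the compared arrays and with equal medians, 2 with a trend, above the median level, with a gene's mean over its probe sets, and without the 5 arrays, and 0 to 2 with 1 left out. For the line R against the knockout the 3 calls became 0 on the compared arrays, 1 by each gene's brightest probe set with p adjusted over all probe sets, 2 with the replicate block, and 0 to 3 with 1 left out. The response at 4 h against the wild type had 0 to 1 calls with 1 array left out in either line. The other 10 comparisons had 0 calls throughout. The compared-arrays models estimate the spread from fewer arrays, and the genes above the median level are fewer tests; the cause of the other changes was not tested. The replicate block changed no other count. Equal array medians moved the median of all genes by more than 0.1 in 7 comparisons: to 0.12 in the wild type at 4 h, 0.22 and 0.18 in the untreated knockout and line R against the wild type, -0.10 in the line R at 24 h, and -0.06, -0.06 and -0.09 for 24 h against 4 h in the wild type, the knockout and the line R. Signal over background limits Tm7sf2 most.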
